A study of Mus musculus with 4 samples.

Results

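Assembled transcripts that lay within the introns of protein-coding genes were taken from whole 4T1 tumors treated with Control SMO or LFPRLR SMO. A listed transcript was counted as intronic if it shared no intron with any annotated gene, if under 50% of its exon bases fell in annotated exons, and if it lay wholly within the span of exactly 1 protein-coding gene, called its host. By this rule 2904 of 22481 listed transcripts were intronic with Control SMO and 8695 of 31908 were intronic with LFPRLR SMO. The tumors were primary mammary tumors grown from injected 4T1 cells in mice of the strain Balb/c that carry Foxp3+EGFP and were 8 weeks of age. The 4T1 line is a transplantable mammary carcinoma of that strain. An SMO is a splice modulating oligomer, an antisense molecule that binds pre-mRNA and changes how it is spliced, and LFPRLR SMO is directed at the long form of the prolactin receptor. Both groups of mice received their oligomer for 12 days at 100 pmoles/h. RNA of 6 mice was pooled for each treatment, so that each group was 1 library and no difference between the libraries had a replicate check. Ratios and counts therefore describe the 2 libraries, and no p-value or SD is given.

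Introns are the parts of a gene that are copied into pre-mRNA and then removed by the spliceosome, which joins the exons. In most long genes the introns make up nearly all of the sequence, and the first intron is often the longest. Total RNA depleted of rRNA holds unspliced and partly spliced pre-mRNA beside mature mRNA, and it can also hold small RNA genes that lie inside introns. An assembler joins overlapping reads into transcripts, so continuous reads within an intron are listed as a transcript of 1 exon. Such a transcript often has no strand of its own, since in a library that does not keep the strand it is read from splice junctions. Levels were given by the authors as FPKM, a count of fragments divided by the length of the transcript and the size of the library.

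The gene targeted by the oligomer gave no check of the labels, since Prlr, which encodes the prolactin receptor, had no listed transcript of any kind in either library. Of its 157 kb of intron no base was covered by an intronic transcript. Defining markers of tumor epithelium (6 of 8 genes), macrophages (8 of 8), fibroblasts (7 of 8) and endothelium (6 of 8) had spliced transcripts in both libraries, whereas none of 8 T cell markers had one in either. The summed spliced FPKM of the epithelial markers was 246 with Control SMO against 252 with LFPRLR SMO, that of the fibroblast markers was 737 and 735, and that of the macrophage markers was 527 and 360. In pooled whole tumor, fewer cells of a type and less RNA per cell cannot be told apart.

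Reference sequences within the intronic transcripts are shown for promoters, because those held with LFPRLR SMO were rich in CG dinucleotides, and for small RNA genes. Each promoter is the 300-base window from 250 bases before to 50 bases after an annotated RefSeq start (GRCm38.p6), printed along the strand of the gene, and capitals mark the CG dinucleotides. The first 3 windows lay wholly within an intronic transcript of their own gene in both libraries, and the last 2 with LFPRLR SMO only. They were chosen after their values were seen. The windows were at chr2:92185233-92185532 (plus strand) for Phf21a, chr5:24908460-24908759 (minus strand) for Prkag2, chr4:47385966-47386265 (plus strand) for Tgfbr1, chr4:119539411-119539710 (plus strand) for Foxj3 and chr5:96161941-96162240 (minus strand) for Cnot6l.
Phf21a: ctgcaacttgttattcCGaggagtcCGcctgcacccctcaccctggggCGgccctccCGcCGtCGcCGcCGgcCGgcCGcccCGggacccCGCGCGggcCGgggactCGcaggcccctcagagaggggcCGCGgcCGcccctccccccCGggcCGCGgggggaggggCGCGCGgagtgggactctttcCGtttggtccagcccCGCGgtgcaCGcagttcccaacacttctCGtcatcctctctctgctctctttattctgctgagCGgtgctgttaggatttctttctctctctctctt
Prkag2: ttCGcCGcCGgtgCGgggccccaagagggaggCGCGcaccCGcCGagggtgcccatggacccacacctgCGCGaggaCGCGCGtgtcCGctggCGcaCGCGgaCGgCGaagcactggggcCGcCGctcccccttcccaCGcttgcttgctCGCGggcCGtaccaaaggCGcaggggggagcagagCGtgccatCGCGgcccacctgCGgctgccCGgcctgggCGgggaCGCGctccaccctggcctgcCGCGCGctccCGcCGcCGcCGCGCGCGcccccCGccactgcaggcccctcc
Tgfbr1: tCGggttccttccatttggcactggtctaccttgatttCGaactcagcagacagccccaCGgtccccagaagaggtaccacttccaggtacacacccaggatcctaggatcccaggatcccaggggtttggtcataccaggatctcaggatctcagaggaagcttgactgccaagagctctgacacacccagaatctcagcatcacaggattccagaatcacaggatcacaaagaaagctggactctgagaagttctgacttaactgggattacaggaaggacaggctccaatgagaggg
Foxj3: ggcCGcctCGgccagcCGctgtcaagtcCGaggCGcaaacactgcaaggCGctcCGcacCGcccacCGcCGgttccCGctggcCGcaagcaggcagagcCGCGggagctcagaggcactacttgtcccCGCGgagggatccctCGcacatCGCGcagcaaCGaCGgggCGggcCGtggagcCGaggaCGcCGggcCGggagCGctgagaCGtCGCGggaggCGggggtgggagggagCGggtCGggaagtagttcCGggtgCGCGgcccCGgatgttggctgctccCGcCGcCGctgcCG
Cnot6l: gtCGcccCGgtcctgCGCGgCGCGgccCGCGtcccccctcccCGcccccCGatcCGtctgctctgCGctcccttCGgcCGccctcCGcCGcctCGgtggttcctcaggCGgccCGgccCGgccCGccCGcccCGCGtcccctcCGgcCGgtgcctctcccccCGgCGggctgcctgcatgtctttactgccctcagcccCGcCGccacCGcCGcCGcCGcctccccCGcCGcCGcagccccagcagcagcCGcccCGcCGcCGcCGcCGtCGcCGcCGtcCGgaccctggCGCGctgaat

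Of 1005 miRNA hairpins in the RefSeq table, 3 lay wholly within an intronic transcript with Control SMO against 6 with LFPRLR SMO. Both libraries held Mir763 in Hmga2 and Mir7655 in Mllt10. Mir5136 in Lbhd1 was held with Control SMO only, and Mir1955 in Phf21a, Mir8112 in Smyd1, Mir6374 in Tet3 and Mir5620 in Clcn4 with LFPRLR SMO only. The mature miRNAs of both loci shared by the libraries are shown with the seed, bases 2 to 8, in capitals, and no seed was shared among them. The other element is Gm23935, annotated as a miRNA gene of 57 bases at chr16:11144125-11144181 (plus strand), which lay within the intronic transcript of Zc3h7a and is described with the transcripts of very high level.
mmu-miR-763: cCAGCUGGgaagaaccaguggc
mmu-miR-7655-5p: cGGCCCACggagcuccuaaaga
mmu-miR-7655-3p: uUUAUGACgcuccgugggccug
Gm23935: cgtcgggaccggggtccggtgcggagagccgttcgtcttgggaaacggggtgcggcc

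The transcript that held Mir763 was 2065 bases long at an FPKM of 2.95 with Control SMO and 3597 bases long at 5.55 with LFPRLR SMO. The one that held Mir7655 was 1350 and 1648 bases long, at an FPKM of 1.69 and 1.71. In both cases the hairpin made up a small part of the transcript, and the FPKM is that of the whole transcript and not of the miRNA.

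Intronic transcripts took 12.9% of the listed transcripts with Control SMO (95% Wilson interval 12.5 to 13.4) and 27.3% with LFPRLR SMO (26.8 to 27.7), where the interval covers counting error only. Their number was 2.99 times as high with LFPRLR SMO. Transcripts that shared an intron with an annotated gene, those that follow known splicing, numbered 14806 with Control SMO against 14754 with LFPRLR SMO, a ratio of 0.996. The excess with LFPRLR SMO was therefore among transcripts that follow no annotated splicing. Other transcripts of this kind also differed in number between the libraries. Those lying between genes numbered 362 and 584 (ratio 1.61), those that overlapped exons by at least 50% numbered 3914 and 5698 (1.46), and those running across the end of a gene numbered 116 and 1354 (11.7). Those within several protein-coding genes numbered 102 and 284 (2.78), and those within a gene that is not protein-coding 277 and 539 (1.95). The intronic class was the largest of them with LFPRLR SMO, and transcripts across a gene end had the largest ratio.

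Depth was not given as read counts. Mean read depth per unit of FPKM, a measure of relative depth, had a median of 1.89 with Control SMO against 1.76 with LFPRLR SMO over intronic transcripts of at least 300 bases. The part of depth in the number of intronic transcripts was not tested. The median read depth of an intronic transcript was 3.12 and 3.38. Intronic transcripts were thus built from few reads in both libraries.

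Nearly every intronic transcript was a single short block. With Control SMO 2897 of 2904 (99.8%) had 1 exon, and with LFPRLR SMO 8685 of 8695 (99.9%). The median length was 945.5 bases with Control SMO, with the 10th and 90th percentiles at 459 and 1765 bases, and 924 bases with LFPRLR SMO, with percentiles at 475 and 1688. The longest were 9702 and 13475 bases, and 53 and 143 were under 300 bases. No base of an annotated exon was included in 89.5% with Control SMO against 87.8% with LFPRLR SMO. A gene that is not protein-coding was touched by 5.75% and 5.09% of them. Few intronic transcripts thus touched an annotated noncoding RNA gene. At the limit of the rule, the last transcript counted with Control SMO lay in Pip5k1b with 49.6% of its bases in exons at an FPKM of 1.68, and the first left out lay in Mbd1 with 50.3% at 1.24. With LFPRLR SMO these were in Rai14 with 49.9% at 2.83 and in Acsl6 with exactly 50% at 3.05.

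No strand was listed for 91.5% of the intronic transcripts with Control SMO against 90.6% with LFPRLR SMO. Among those with a strand, 110 of 246 (44.7%, interval 38.6 to 51.0) had that of the host with Control SMO and 427 of 818 (52.2%, 48.8 to 55.6) with LFPRLR SMO. Neither orientation took a clear majority among the few stranded transcripts. Only 7 and 10 of all intronic transcripts had more than 1 exon, so most stranded ones were single blocks. How the strand of these was set is not known here. For the others, reads of the host and of an antisense RNA cannot be told apart.

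The median FPKM was 1.68 with Control SMO (95% interval of the median 1.63 to 1.71) and 1.95 with LFPRLR SMO (1.92 to 1.98). This interval also covers counting error only and treats transcripts as independent, although many lay in the same host. The lowest was 0.507 and 0.469, and the 10th and 90th percentiles were 0.963 and 5.51 with Control SMO, compared with 1.08 and 5.38 with LFPRLR SMO. The ranges of level overlapped over most of their width, whereas the numbers differed by a ratio of 2.99. Together they covered 3.14 Mb with Control SMO and 9.17 Mb with LFPRLR SMO, which was 2.70% and 4.07% of the intron bases of their hosts.

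Hosts were 979 of 21951 protein-coding genes with Control SMO (4.46%) against 2138 with LFPRLR SMO (9.74%). The libraries shared 833 hosts, which were 85.1% of the Control SMO hosts and 39.0% of the LFPRLR SMO hosts. Another 1305 genes were hosts with LFPRLR SMO only and held 2443 transcripts there, and 146 were hosts with Control SMO only and held 170. Most of the LFPRLR SMO transcripts, 6252, thus lay in genes that were also hosts with Control SMO, where 2734 were found. Among the shared hosts 567 had more transcripts with LFPRLR SMO, 57 had fewer and 209 had the same number. Many hosts had 1 transcript, 532 with Control SMO against 1053 with LFPRLR SMO. Hosts with at least 10 transcripts numbered 55 and 205, and they held 34.1% and 50.3% of all intronic transcripts.

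**Figure D1:**
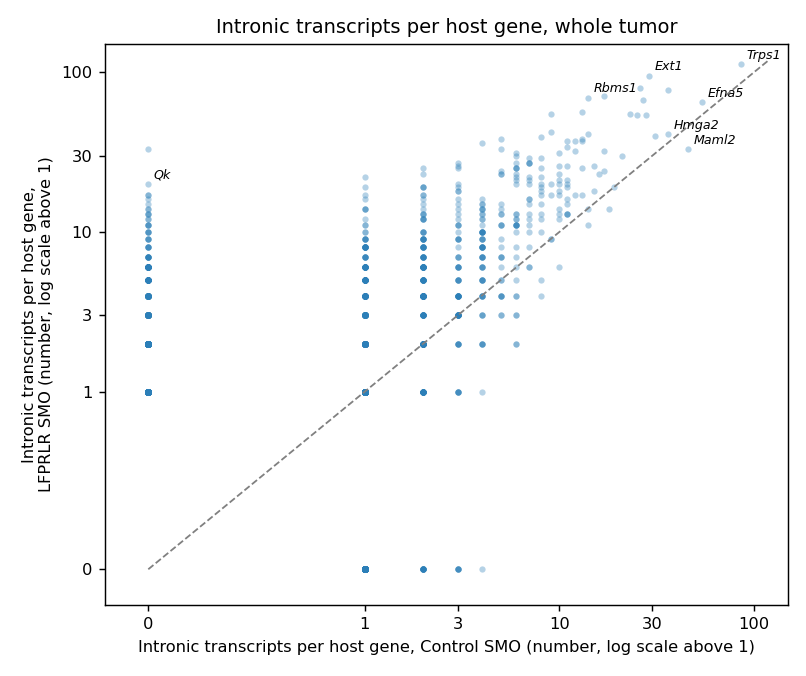
Number of intronic transcripts in each of the 2284 host genes, with Control SMO on the x axis and LFPRLR SMO on the y axis (both log scale above 1, with 0 shown), 1 point per gene and a dashed line where both are equal. More shared hosts lie above the line (567) than below it (57), and Trps1 holds the most transcripts in both libraries.

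Long genes and well expressed genes were more often hosts. When genes with a spliced transcript were divided into quartiles by intron length, 1.42%, 4.77%, 10.2% and 25.1% were hosts with Control SMO from the shortest to the longest quartile, and 3.21%, 12.9%, 25.6% and 49.5% with LFPRLR SMO. By spliced FPKM the shares were 4.82%, 8.44%, 14.4% and 13.95% with Control SMO, compared with 11.6%, 20.5%, 28.3% and 30.8% with LFPRLR SMO. The range across quartiles was wider for intron length than for the spliced level in both libraries. Hosts with no spliced transcript numbered 73 with Control SMO against 261 with LFPRLR SMO.

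Per Mb of protein-coding intron, chromosome 15 held the most intronic transcripts, 6.19 with Control SMO against 17.2 with LFPRLR SMO. Trps1 and Ext1 lie on this chromosome, and without them it held 3.07 and 11.7 per Mb. The X chromosome held 1.10 and 4.63 and chromosome 14 held 1.47 and 5.25, the lowest densities outside chromosome Y. The number with LFPRLR SMO was above that with Control SMO on each chromosome, by a ratio of 2.49 on chromosome 4 to 4.47 on chromosome 18 with chromosome Y (4 and 7 transcripts) left out.

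Trps1, a GATA-type zinc finger repressor of transcription expressed in mammary epithelium, was the host with the most intronic transcripts (chr15:50654752-50890463, minus strand). It held 86 with Control SMO against 112 with LFPRLR SMO, which covered 27.0% and 50.1% of its 222 kb of intron. Their median length was 403 and 694.5 bases. The intronic sum of a host adds FPKM times length in kb over its intronic transcripts of at least 300 bases. For Trps1 it was 380 with Control SMO against 802 with LFPRLR SMO, a log2 ratio of 1.08, while the spliced FPKM of Trps1 was 26.1 and 11.4, a log2 ratio of -1.19. The intronic sum and the spliced FPKM of Trps1 thus differed between the libraries in opposite directions. Such a sum also grows with the number and length of the transcripts. The median FPKM of the intronic transcripts of Trps1 was lower with LFPRLR SMO (7.33) than with Control SMO (9.09).

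Ext1, a glycosyltransferase that extends heparan sulfate chains (chr15:53064038-53346159, minus strand), held 29 transcripts with Control SMO, all of them in its first intron. With LFPRLR SMO it held 95, of which 80 lay in the first intron, the largest number in any single intron. The covered share of its intron was 7.74% and 34.1%, and the intronic sum was 55.0 and 327, a log2 ratio of 2.57. The spliced FPKM was 8.41 and 7.47. Ext1 therefore had a higher intronic sum with LFPRLR SMO at a similar spliced level.

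**Figure D2:**
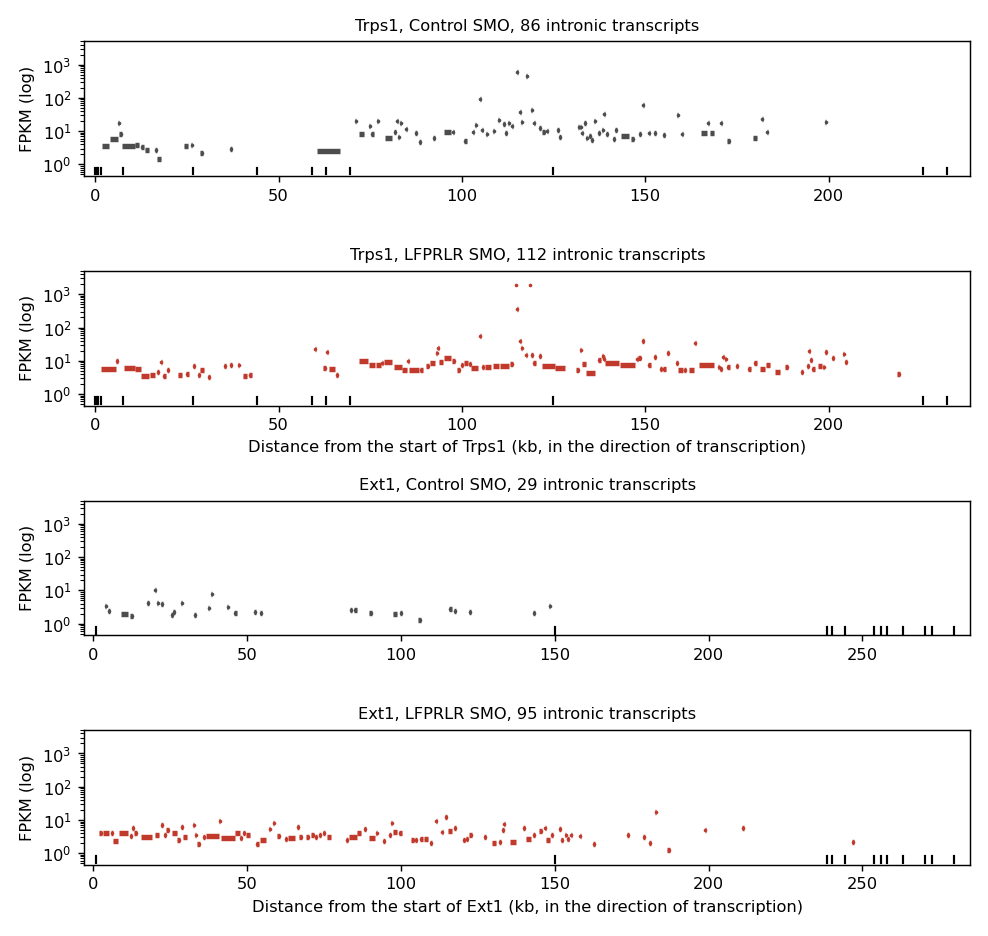
Position (x axis, kb from the host start in the direction of transcription) and FPKM (y axis, log scale) of the intronic transcripts of Trps1 and Ext1 in each library, with bars drawn to the length of each transcript, a dot at its midpoint and black ticks at annotated exons. Trps1 holds 86 and 112 transcripts spread over the gene, and Ext1 holds 29 with Control SMO, all in the first intron, and 95 with LFPRLR SMO.

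Efna5, a membrane-anchored ephrin that binds Eph receptors (chr17:62604184-62881317, minus strand), held 54 and 65 transcripts, all in its first intron, which was the fullest single intron with Control SMO. They covered 38.3% and 55.3% of the intron bases, and the intronic sum was 188 and 377. Hmga2, a chromatin protein that binds AT-rich DNA in embryonic and tumor cells (chr10:120361275-120476469, minus strand), was the most densely covered of the 15 hosts with the most transcripts. Its 36 transcripts with Control SMO covered 48.5% of its 108 kb of intron, and its 41 with LFPRLR SMO covered 69.9%. The spliced FPKM of Hmga2 was 14.7 and 14.6, so that its mature mRNA was at the same level in both libraries.

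Among the other hosts of this group, Maml2, a coactivator of Notch signaling, held fewer transcripts with LFPRLR SMO (33) than with Control SMO (46). Their median length was 2162 bases with LFPRLR SMO and 1256.5 with Control SMO, and they covered 24.9% and 18.5% of the intron. Fewer transcripts with more bases covered occurred in 10 hosts, and among all 833 shared hosts 668 had more intron bases covered with LFPRLR SMO and 164 had fewer. Glis3, a zinc finger transcription factor, held 26 and 79 transcripts, and Runx1, a transcription factor of blood and epithelial development, held 27 and 67. Magi1, a scaffold protein of cell junctions, held 36 and 77, and its spliced FPKM was also higher with LFPRLR SMO, at 2.82 and 19.7. Ptprk, a receptor tyrosine phosphatase, held 28 and 54. Rbms1, which encodes an RNA-binding protein, held 14 and 69, Mast4, a kinase, 13 and 56, and Ccbe1, a secreted protein of lymphatic vessel growth, 17 and 71. Hivep2, a zinc finger protein, held 23 and 55 and Zcchc7, an RNA-binding protein of the nucleus, 31 and 40. Kirrel3, a cell adhesion protein of the immunoglobulin family, held 25 and 54 although no transcript that shared an intron with it was listed in either library. Spliced transcripts on the opposite strand were listed within it in both libraries. All 15 of these hosts except Maml2 held more transcripts with LFPRLR SMO.

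Levels were compared between the libraries for 824 hosts with an intronic sum in both. The sum was higher by a factor of 2 or more with LFPRLR SMO in 471 (57.2%) and lower in 18 (2.18%), with a median log2 ratio of 1.22. In 134 of these hosts the Control SMO sum was at least 10, and there the median was 1.03 with 73 higher and 5 lower. When hosts of 1 library only are included, entering as 0 in the other, 1771 of 2273 (77.9%) were higher and 167 (7.35%) lower. Since most hosts were higher, ratios were also centred on the median shared host, which left 156 higher and 148 lower among the 824, and 1456 higher and 297 lower among the 2273.

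The spliced level of the same genes did not differ in this way. For 763 hosts with intronic and spliced transcripts in both libraries, the median log2 ratio of LFPRLR SMO to Control SMO was 1.29 for the intronic sum and -0.02 for the spliced FPKM. The intronic ratio was above the spliced ratio in 630 of them. Over all 7679 genes with a spliced FPKM of at least 1 in both libraries the median was -0.16, with 7.42% higher and 10.6% lower by a factor of 2. At the median, the difference in intronic sum between the libraries was therefore not matched by a difference in mature transcripts of the hosts.

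Of the 8 shared hosts with the largest ratios, 6 held a single transcript with Control SMO. Rtn3, a reticulon of the endoplasmic reticulum, held 1 transcript with Control SMO against 19 with LFPRLR SMO, with an intronic sum of 1.13 and 45.7 (log2 ratio 5.21) and a spliced FPKM of 8.88 and 8.79. For Acsl4, which activates arachidonic acid for lipid synthesis, the sum was 2.18 and 63.2 (log2 ratio 4.79), and its spliced FPKM was 88.1 and 53.1. Cmip, an adaptor protein of T cell signaling, held 1 and 22 transcripts (log2 ratio 4.42), Dock4, an activator of Rac, 1 and 16 (4.34), Lhfp, a membrane protein, 4 and 36 (4.03), Etv6, a repressor of the ETS family, 5 and 38 (3.88), and Amotl1, a junctional protein of the Hippo pathway, 1 and 6 (3.84). In Aida the log2 ratio of 4.00 came from few transcripts, 1 and 3, and is described with the pairs. These hosts had up to 38 transcripts with LFPRLR SMO at intronic sums of 5.23 or less with Control SMO.

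Ratios in the other direction were smaller. Snx5, a sorting nexin of endosomes, held 3 transcripts with Control SMO against 1 with LFPRLR SMO, with intronic sums of 10.1 and 1.92 (log2 ratio -2.33) while its spliced FPKM was 9.13 and 31.1. Log2 ratios of -1.36 to -1.88 were found for Tulp4, St3gal5, the GM3 ganglioside synthase, Sh3d19, Ndufa12, a subunit of respiratory complex I, Rbm25, a regulator of splicing, Hspa4, a chaperone, and Zfc3h1, which guides nuclear RNA to decay. Each held 1 to 6 transcripts with Control SMO and 1 to 3 with LFPRLR SMO, so that these ratios rested on few transcripts. Their spliced FPKM was also lower with LFPRLR SMO for Tulp4 (19.0 and 10.5), Sh3d19 (9.68 and 7.22) and Hspa4 (50.9 and 41.6). It was higher for Rbm25 (21.8 and 28.5) and Zfc3h1 (13.3 and 14.7). Ndufa12 (45.6) and St3gal5 (2.32) had a spliced transcript with Control SMO only.

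The 8 lists of genes, numbering 16 to 38 members each, were read against all protein-coding genes. Of these, 4.46% were hosts with Control SMO against 9.74% with LFPRLR SMO. That share also counts genes without a spliced transcript. By quartile of spliced FPKM, genes with one were hosts at 4.82% to 14.4% with Control SMO and 11.6% to 30.8% with LFPRLR SMO. The lists were not set against expressed genes alone. In the list of prolactin and JAK/STAT5 signaling, with 22 genes, 3 were hosts with Control SMO (16 transcripts) and 6 with LFPRLR SMO (47 transcripts). Most of these lay in Ghr, the growth hormone receptor, which held 12 and 37 with an intronic sum of 19.6 and 76.3 (log2 ratio 1.96) and a spliced FPKM of 7.74 and 7.38. Jak2, the kinase that both receptors use, held 3 in each library, with an intronic sum of 6.32 and 12.0 and a spliced FPKM of 31.3 and 17.9. None of the 20 genes of the T cell receptor and synapse was a host in either library. Of these 20, only 5 and 6 had a spliced transcript (Control SMO first). With so few, the lack of hosts is not shown to be particular to T cell genes. Of 16 Treg and T cell genes, 3 and 4 had a spliced transcript. Among the 16, 2 were hosts with LFPRLR SMO only, Ikzf2 with 2 transcripts and Nt5e, which encodes CD73, with 1.

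Of 38 splicing factors 15 were hosts with Control SMO (35 transcripts) and 21 with LFPRLR SMO (104 transcripts). All 38 had a spliced transcript in both libraries, and most have short introns, with a median of 13.4 kb of intron per gene. Mbnl1, a regulator of alternative splicing, held 11 and 19, and Qk, an RNA-binding regulator of splicing and RNA stability, held 20 with LFPRLR SMO and is not listed as a host with Control SMO. Over the 13 members with an intronic sum in both libraries the median log2 ratio was 1.40, with 10 higher by a factor of 2 and 0 lower. Over all shared hosts the median was 1.22, with 57.2% higher and 2.18% lower. Of the 13, Tra2a, a splicing activator, went the other way with sums of 21.4 and 17.2 (log2 ratio -0.32). Members with a sum in 1 library only are not among the 13. U2af1 (3.12) and Clk1 (2.28) had one with Control SMO only, and several, such as Qk (36.2), with LFPRLR SMO only. U2af1 nonetheless held 1 transcript in each library at the same place, with an FPKM of 8.20 and 18.1. The one with LFPRLR SMO, of 285 bases, was too short to enter the sum.

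Of 23 annotated genes of cytoskeleton and adhesion signaling 7 were hosts with Control SMO against 14 with LFPRLR SMO. Fndc3b, a membrane protein of the endoplasmic reticulum, led with 11 and 34 transcripts, and its spliced FPKM was 8.22 and 17.4. Ptk2, which encodes focal adhesion kinase, held 3 and 14, at a spliced FPKM of 18.6 and 19.1. Of 23 genes of matrix and EMT 4 and 7 were hosts, led by Zeb2, a repressor of E-cadherin, with 12 and 32 and by Tgfbr1, a TGF-beta receptor, with 11 and 13. Of 24 very long genes 5 and 7 were hosts, Pard3, a polarity protein, with 13 and 38 and Tcf4, a transcription factor, with 4 and 13 leading, and only 5 and 7 of the list had a spliced transcript. Of 18 macrophage genes, 16 and 17 had a spliced transcript. None was a host with Control SMO, and 2 were hosts with LFPRLR SMO (11.1%), Mrc1 and Msr1 with 1 transcript each. Both are scavenger or mannose receptors of macrophages. Over all protein-coding genes the shares were 4.46% and 9.74%. In the quartile of lowest spliced level they were 4.82% and 11.6%, and they were higher in the other quartiles.

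Intronic transcripts lay mainly toward the 5′ end. The midpoint was in the first 50% of the host, in the direction of transcription, for 68.1% with Control SMO against 69.0% with LFPRLR SMO, and the median relative position was 0.308 and 0.313, where 0 is the start and 1 the end of the host. The first 10% of the host held 21.4% and 19.8% of them, and the last 10% held 3.79% and 2.89%. The first intron held 28.0% and 26.6%, beside 19.2% and 17.2% of the intron bases of the hosts. With introns of the longest annotated transcript of each host, the first intron held 42.9% and 44.99%, beside 30.1% and 28.2% of the intron bases.

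The same gradient was found within introns. The first 10% of an intron held 470 transcripts (16.3%) with Control SMO against 1320 (15.4%) with LFPRLR SMO, and the last 10% held 124 (4.30%) and 403 (4.71%). In introns of at least 50 kb it was steeper, with 77.9% of 933 and 74.9% of 2737 transcripts in the first 50%. Hosts on both strands of the genome showed it, with 67.6% (plus strand) and 68.9% (minus strand) in the first 50% of the intron with Control SMO, and 64.9% and 64.7% with LFPRLR SMO. The median FPKM changed less along the intron, at 1.73 in the first and 1.87 in the last 10% with Control SMO and at 2.16 and 1.93 with LFPRLR SMO. With LFPRLR SMO the median FPKM was highest in the first 10% of the intron and between 1.79 and 1.99 in the other steps, and with Control SMO it lay between 1.54 and 1.87 in all of them.

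**Figure D3:**
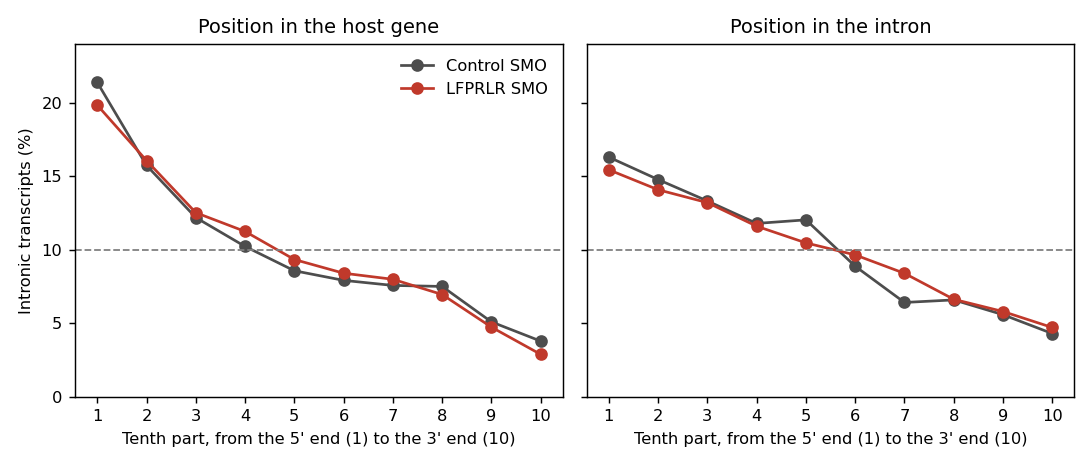
Share of intronic transcripts (y axis, %) in steps of 10% of the host gene (left) and of the intron (right), from the 5′ end to the 3′ end, for each library. The dashed line at 10% marks an even spread over length, and on the left it makes no allowance for exons. Both libraries decline along the gene, from 21.4% and 19.8% in the first 10% to 3.79% and 2.89% in the last.

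Transcripts were often neighbors. They lay in 1455 introns with Control SMO against 3534 with LFPRLR SMO, of which 434 and 1256 held at least 2. The median gap to the next transcript of the same intron was 1586 and 1267 bases. The median distance to the nearer end of the intron was 3664 and 4406 bases, and 3.13% and 3.51% started within 1000 bases of the start of the host. Most intronic transcripts thus lay more than 1000 bases from the host start.

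Of the Control SMO transcripts 68.6% overlapped an intronic transcript of the other library by at least 1 base, and of the LFPRLR SMO transcripts 23.2%. With an overlap of at least 50% of both transcripts the shares were 40.2% and 13.4%. Pairs of this kind numbered 1172, in 521 hosts, and compare the level at the same place. The FPKM was higher with LFPRLR SMO in 900 pairs, with a median log2 ratio of 0.43 and the 10th and 90th percentiles at -0.38 and 1.14. By a factor of 2, 184 pairs were higher and 25 lower. The median log2 ratio of length was 0.09, and 665 were longer with LFPRLR SMO. At places listed in both libraries the levels differed less than the intronic sums did, whose median log2 ratio was 1.22. These measures differ by construction, since a pair compares FPKM alone and a sum also grows with the number and length of transcripts.

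**Figure D4:**
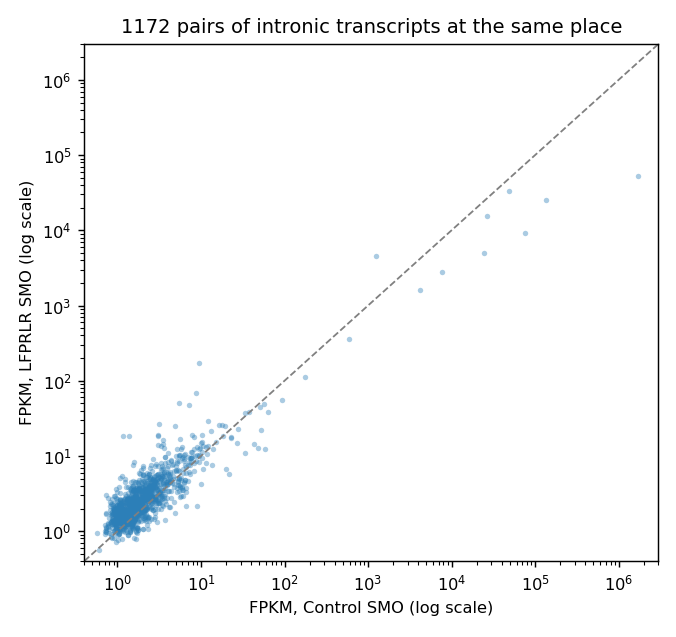
FPKM of the 1172 pairs of intronic transcripts that overlapped by at least 50% of both, with Control SMO on the x axis and LFPRLR SMO on the y axis (log scales), 1 point per pair and a dashed line where both are equal. Most pairs lie near an FPKM of 1 to 10 and 900 lie above the line, whereas most of those above 1000 lie below it.

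Among the 8 pairs of highest mean FPKM with both transcripts of at least 300 bases, the one with the largest log2 ratio was in the first intron of Aida, a protein that binds axin. Its FPKM was 9.40 over 556 bases with Control SMO and 175 over 463 bases with LFPRLR SMO, a log2 ratio of 4.22, while the spliced FPKM of Aida was 7.78 and 6.32. In the first intron of Coro2a, an actin-binding coronin, 3 pairs were all lower with LFPRLR SMO, at 174 and 113, 57.0 and 48.8, and 51.9 and 22.4. Coro2a held 7 and 8 intronic transcripts, while its spliced FPKM was 0.953 with Control SMO and no spliced transcript was listed with LFPRLR SMO. A pair in Pitpna, a lipid transfer protein, was at 47.9 and 12.8. It overlapped the annotated gene Gm12338, with which reads can be shared.

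An intronic transcript held the promoter window of its own host, as shown for Phf21a and the others, more often with LFPRLR SMO. These promoters belong to starts that lie inside the gene, downstream of its first start. A whole window was held by 9 transcripts with Control SMO (0.310%, interval 0.163 to 0.588) and 141 with LFPRLR SMO (1.62%, interval 1.38 to 1.91), and at least 1 base of one was overlapped by 21 and 266. The median number of CG dinucleotides was 21 in the 10 windows held with Control SMO and 35 in the 173 held with LFPRLR SMO, beside 7 in all 32851 windows of the table. At least 20 were found in 60.0% and 89.6% of these windows, in 58.7% and 60.1% of all promoters of the hosts and in 26.5% of all windows. The CG dinucleotide reads the same on both strands, and a count of it describes the window and not its activity.

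Few windows were held in both libraries, 5 in all. Those of Phf21a, a histone-binding protein, and Prkag2, a subunit of AMP-activated kinase, had 31 and 45 CG dinucleotides and those of Tgfbr1, Neu2 and Rnf146 had 3, 2 and 1. The Phf21a transcript had an FPKM of 1.45 over 1048 bases with Control SMO and 1.85 over 1406 bases with LFPRLR SMO, and that of Prkag2 had 1.45 over 758 bases and 1.77 over 1367 bases. That of Tgfbr1 had 2.52 over 3806 bases and 3.43 over 3707 bases, so that all 3 were at similar levels in both libraries. Among those held with LFPRLR SMO only, Cnot6l, a catalytic subunit of the CCR4-NOT deadenylase, had 3 windows within 1 transcript of 1809 bases at an FPKM of 6.29, and Foxj3, a forkhead transcription factor, had 1 with 42 CG dinucleotides within 1139 bases at 4.26. Their spliced FPKM was 5.53 and 6.16 for Cnot6l and 4.27 and 2.48 for Foxj3 with Control SMO and LFPRLR SMO.

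Holding of any promoter window was also more common with LFPRLR SMO among transcripts that were not intronic. It was found for 49 transcripts with Control SMO against 456 with LFPRLR SMO among those that overlapped exons, and for 14 of 116 and 580 of 1354 among those across a gene end, compared with 23 and 207 of the intronic ones. The windows held with LFPRLR SMO had a median of 34 CG dinucleotides in the exon class, 36 across gene ends and 34 in the intronic class. With Control SMO these medians were 17, 18 and 5.5, over 59, 17 and 28 windows. The share of transcripts that held a window and the median CG number of the held windows were thus higher with LFPRLR SMO in each of these 3 classes.

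**Figure D5:**
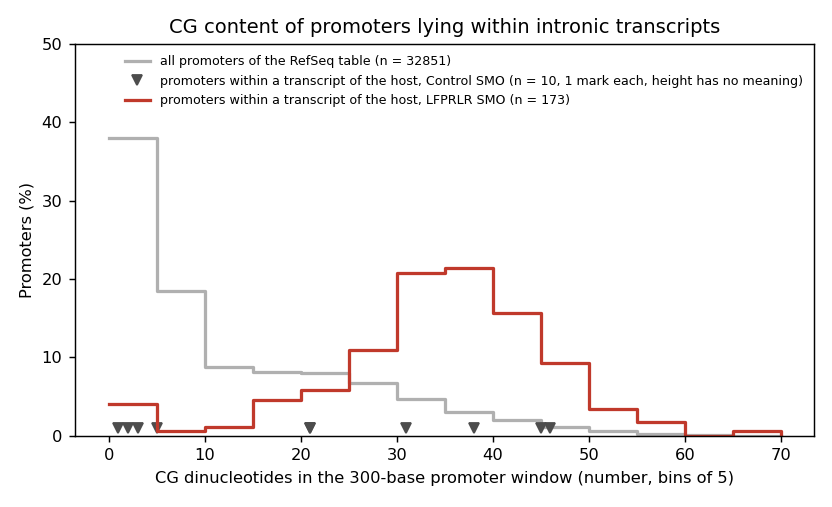
Number of CG dinucleotides in 300-base promoter windows (x axis, bins of 5) and the share of windows (y axis, %), for all 32851 windows (grey line) and the 173 held by an intronic transcript of the same gene with LFPRLR SMO (red line), with the 10 held with Control SMO as single marks. The median of the red distribution is 35 and that of all windows 7.

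A few intronic transcripts had an FPKM over 1000, 12 with Control SMO in 10 hosts and 17 with LFPRLR SMO in 14 hosts, and all 10 hosts were among the 14. Of these transcripts 4 and 5 were at least 300 bases long. In Jarid2, a subunit of the Polycomb complex PRC2, a block of 530 bases had an FPKM of 49077 with Control SMO and one of 531 bases had 33012 with LFPRLR SMO (chr13:44869499-44870028 and chr13:44869558-44870088). In Cdk8, a kinase of the Mediator complex, the FPKM was 39670 over 676 bases and 11550 over 1897 bases. In Camk1d, a calcium-dependent kinase, it was 4187 over 611 bases and 1627 over 947 bases. The FPKM of these 3 places was thus lower with LFPRLR SMO. FPKM is divided by length, and the blocks of Cdk8 and Camk1d were longer with LFPRLR SMO. The part of length in their lower FPKM was not tested. The Cdk8 blocks differed too much in length to count as a pair. Jarid2 and Camk1d were pairs, and most pairs were higher with LFPRLR SMO.

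The block in Zc3h7a, an RNA-binding zinc finger protein, had an FPKM of 26261 over 415 bases and 15528 over 519 bases, and it spans the 57 bases of Gm23935 printed above. At least 1 run of 20 bases of Gm23935 occurs in 6 annotated transcripts, itself included, and 3 of them are identical, Gm23935, Gm24245 on chromosome 4 and Gm24270 on chromosome 9. Reads can be shared between such copies, so the level in Zc3h7a is uncertain. In Cd44, a hyaluronan receptor, an 87-base block had 1687665 and a 133-base block had 53414. Blocks under 300 bases enter no intronic sum, and the spliced FPKM of Cd44 was 29.9 and 29.6.

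These few transcripts dominated the summed level. Intronic transcripts of at least 300 bases took 17.5% of FPKM times length with Control SMO against 25.2% with LFPRLR SMO. Without transcripts over an FPKM of 1000 the shares were 3.34% and 10.5%. When blocks under 300 bases were included the order turned, with 84.8% and 16.4%. The FPKM of such short blocks is uncertain, as said for Cd44.

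Intronic transcripts with more than 1 exon were rare, 7 with Control SMO against 10 with LFPRLR SMO. Transcripts of this kind were found at 3 loci in both libraries: Pkp1, a desmosome protein, Mrpl24, a protein of the mitochondrial ribosome, and Antxr2, an anthrax toxin receptor, and at all of them the transcripts ran on the strand opposite to the host. In Pkp1 the transcript had an FPKM of 8.85 and 2.16, and it overlapped the annotated gene Gm36938. In Antxr2 it had 3.38 over 2 exons with Control SMO and 2.66 and 2.89 in 2 forms of 3 exons with LFPRLR SMO. The most exons were 3 with Control SMO, in Lrrk1, and 5 with LFPRLR SMO, in Kirrel3, on the opposite strand to the host at an FPKM of 1.46. With Control SMO a transcript of 2 exons opposite to Kirrel3 was listed at another place in the gene, at 1.96. It overlapped the annotated gene Kirrel3os. A spliced transcript of 3 exons opposite to Egfr, the EGF receptor, was listed with LFPRLR SMO at 1.54. Spliced transcripts opposite to the host were therefore listed at a few hosts only.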

How the data were processed

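RNA of whole tumors was extracted, depleted of rRNA and sequenced as 1 pooled library per treatment. The authors deposited transcript lists assembled by Cufflinks on mm10, each transcript with an FPKM, its bounds, a coverage and a score. The score was not used, nor were the bounds, since the deposited FPKM of intronic transcripts lay within its own bounds in 90.0% (Control SMO) and 92.3% (LFPRLR SMO). Tools listed in the submitters' processing notes are Cufflinks, Cuffdiff 2.0.2, StringTie 1.2.3 and HISAT2 2.0.4. The version of Cufflinks and the read counts are not given in the sources used here. Assembly sets which reads become a transcript: Cufflinks by default drops intronic reads that are few beside the spliced reads of the gene, so an intron without a listed transcript is not shown to be without RNA.

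Transcripts were classed against GENCODE M21 (GRCm38) with Python 3.11.15, numpy 2.4.6 and scipy 1.17.1. Introns were the gaps between merged exons of all transcripts of a host, and position was taken at the midpoint. The spliced FPKM of a gene summed its transcripts that shared an intron with it. Ratios are log2((LFPRLR SMO + 0.1)/(Control SMO + 0.1)) for sums and spliced levels, so that ratios of low genes are understated, and without the 0.1 for pairs. Intronic sums and summed levels used transcripts of at least 300 bases. A factor of 2 was counted. With 1 library per treatment there was no test, and 95% Wilson intervals and intervals of a median cover counting error only.

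Named hosts were Prlr, the 15 with the most transcripts, the 8 largest rises and falls among shared hosts, and 2 per gene list. Named transcripts were the 8 of highest FPKM per library and the 8 pairs of highest mean FPKM, both among transcripts of at least 300 bases, and the 4 with the most exons per library. Shorter blocks of higher FPKM, such as that in Cd44, were named after their values were seen. Other hosts and sequences named were chosen after their values were seen. The members and the 8 gene lists were chosen with earlier results of these data known. The classing was tested on simulated transcripts. Alternatives were other exon, host, length, FPKM and overlap limits, pseudocounts, a factor of 3, coverage in place of FPKM, and centring. The following were chosen after seeing the data: leaving out transcripts over an FPKM of 1000, leaving out those starting within 5000 bases of the host start, and shared hosts with centring. Sequences are from the RefSeq tables and the GENCODE transcripts. Sorted tumor Tregs were used only in the closing section. The result for 1 host gene is not reported here.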

Additional observations from a re-analysis of the deposited data

How the results depend on the processing

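The number of intronic transcripts and of hosts was within 1.5 times the reported value under the limits on exon bases, hosts, noncoding genes and length, and not at an FPKM of at least 5, with 334 and 990 transcripts in 157 and 389 hosts (Control SMO first, LFPRLR SMO second here and below). Their share of listed transcripts was 11.6% and 23.9% with no exon base allowed, 13.5% and 28.1% with exons of protein-coding genes only, 13.4% and 28.1% when several hosts were allowed, 12.2% and 25.9% without overlap with a noncoding gene, and 7.47% and 20.4% at an FPKM of at least 5. It was higher with LFPRLR SMO under each of these. Counterparts were found for 40.2% and 13.4% at 50% overlap and for 54.5% and 16.9% at an FPKM of at least 5. Median length was 920.5 and 909 bases with no exon base and 388.5 and 405 bases at an FPKM of at least 5, and the first intron held 42.9% and 44.99% when introns came from the longest transcript of the host. The share of the summed level was 84.8% and 16.4% over all lengths, 13.3% and 19.7% by coverage, 14.6% and 16.9% with no exon base, and 3.34% and 10.5% without transcripts over an FPKM of 1000. With all lengths it was lower with LFPRLR SMO, and by construction that setting differs only in letting blocks under 300 bases enter. Hosts higher by a factor of 2 numbered 471 among shared hosts and 156 when these were centred. Lower hosts numbered 18 among shared hosts, and 297 when all hosts were centred. Of the calls, 91.4% were higher as reported, 83.1% centred and 51.3% among shared hosts centred. The remaining 50 alternative values stayed close to those reported. Median position and median FPKM were among them.

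No paired analysis was possible because each treatment is 1 library. The difference between the libraries cannot be told apart from any difference in RNA preparation, library or assembly, and depth is known only through coverage.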

Other observations

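The same rule was applied to the transcripts of sorted tumor Tregs, made by another program, so that their levels are not set beside those of whole tumor. All 4838 listed transcripts are equal under both treatment labels, and they are described as 1 set. Of these 152 (3.14%) were intronic, in 129 hosts, and 149 had 1 exon. Their median length was 280 bases and 85 were under 300 bases. Lyn, a Src-family kinase of myeloid and B cells, held 4, and Cd86, a costimulatory ligand, Scarb2 and Cntnap2 held 3 each. The hosts included 49 hosts of the Control SMO tumor and 62 of the LFPRLR SMO tumor, and 24 and 29 of the transcripts overlapped an intronic transcript there.

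Over an FPKM of 1000 there were 16 in the Treg set. Their hosts included Jarid2, Cdk8, Camk1d, Zc3h7a, Cd44 and Il31ra, which also had such transcripts in both whole tumor libraries. Peak1 held another at an FPKM of 52529 over 394 bases, which spans Gm24270, identical in sequence to Gm23935 in Zc3h7a, so that reads can be shared between them.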
